A study of Oryza sativa with 36 samples.

Results

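The 6 genes described here encode 5 late embryogenesis abundant (LEA) proteins, LEA19, EM, Dhn1, rab25 and Os08g0327700, and the plasma membrane protein PM1. They were chosen by name, each with a listed probe set of the Affymetrix rice array, and every further probe set that the array annotation gives to the same gene was added. This gave 9 of the 57258 probe sets tested, 3 of them for Dhn1, 2 for PM1 and 1 for each of the other genes. Of the 17905 rice genes that the annotation names, they are 6.

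LEA proteins are hydrophilic and largely unordered proteins that accumulate in embryos as seeds dry, and in leaves and roots when water is lost to drought, salt or cold. Many of their genes are switched on by abscisic acid (ABA), a hormone that rises under water deficit and acts through PYL receptors, PP2C phosphatases, SAPK kinases and bZIP transcription factors. LEA19, also named OsLEA3-1, belongs to LEA group 3, and the study annotates Os08g0327700 as a group 1 family protein. The dehydrins, which bind membranes and other proteins, are represented by Dhn1, also named OsLIP9, and rab25. EM is the rice Em protein, named after an abundant protein of wheat embryos. PM1, also named OsPM19L1, belongs to the AWPM-19-like family of plasma membrane proteins and has been described as an ABA importer of rice.

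Shoots (called leaf in the labels) and roots of 2 rice genotypes were profiled, with 3 arrays for each of 12 groups and 36 arrays in all. IR64, a rice variety of moderate salt sensitivity, provides the genetic background of the tolerant line PL177 (177-103 in the labels), which combines introgressions of IR64-derived parents and was taken to the F6 generation. Seedlings at the 3-leaf stage in Yoshida nutrient solution were kept as control, brought to 140 mM NaCl (salt), or given 140 mM NaCl with 10 µM ABA (salt+ABA), and the labels give 4 days of treatment. The methods describe scoring and sampling of plants after a longer treatment, so the time at which the RNA was taken is not settled. PL177 is a single line, both genotypes shared their boxes of solution, ABA without salt is not among the groups, and the methods call the 3 arrays of a group independent biological replicates. In such whole-organ samples, a larger number of cells that express a gene and more RNA per cell cannot be told apart.

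Values are probe set intensities on a linear scale, and a change is given as log2 of the fold change with its standard error (SE), from limma on log2(intensity + 32) after quantile normalization. Adding 32 makes the fold changes of dim genes smaller than the ratios of their intensities, so ratios of mean intensities are given too. No detection call was used, so a group mean below 32 was set to 32 in such a ratio, which is then given as at least that value. A gene was called changed when the change was more than 2-fold with an adjusted p below 0.05 over all 57258 probe sets, and rose and fell are used only for called changes. Array medians lay between 56.8 and 64.3. The organ labels held: the summed intensity of 4 green tissue genes was 55848 to 58563 in shoots and 5027 to 23389 in roots, and that of 6 root genes was 1412 to 5295 in shoots and 20650.2 to 30773 in roots. One green gene, RBCS1, was dim in both organs, with means of 5.75 and 3.33, and the root gene NAAT1 was brighter in shoots (mean 1965) than in roots (1349). Without NAAT1 the other 5 root genes summed to 508 to 1436 in shoots and 19740.4 to 29348 in roots.

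Over the 36 arrays, LEA19 ranged from 61.2 to 10208, PM1 from 17.0 to 3117, Os08g0327700 from 6.62 to 1024 and rab25 from 27.2 to 559. Dhn1 stayed between 2280 and 7016, and EM between 26.0 and 62.3. The ratio of the highest to the lowest group mean was 127.6 for LEA19, at least 64.7 for PM1, at least 19.6 for Os08g0327700, at least 10.2 for rab25, at least 1.67 for EM and 1.64 for Dhn1. EM was dim in every group, with group means of 29.5 to 53.5, and Dhn1 bright in every group. Values below 32, where the log2 scale used here is compressed, were found on 11 arrays for Os08g0327700, 5 for PM1, 4 for rab25, 2 for EM and 0 for LEA19 and Dhn1. The plot of levels by group shows all of these values.

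**Figure D1:**
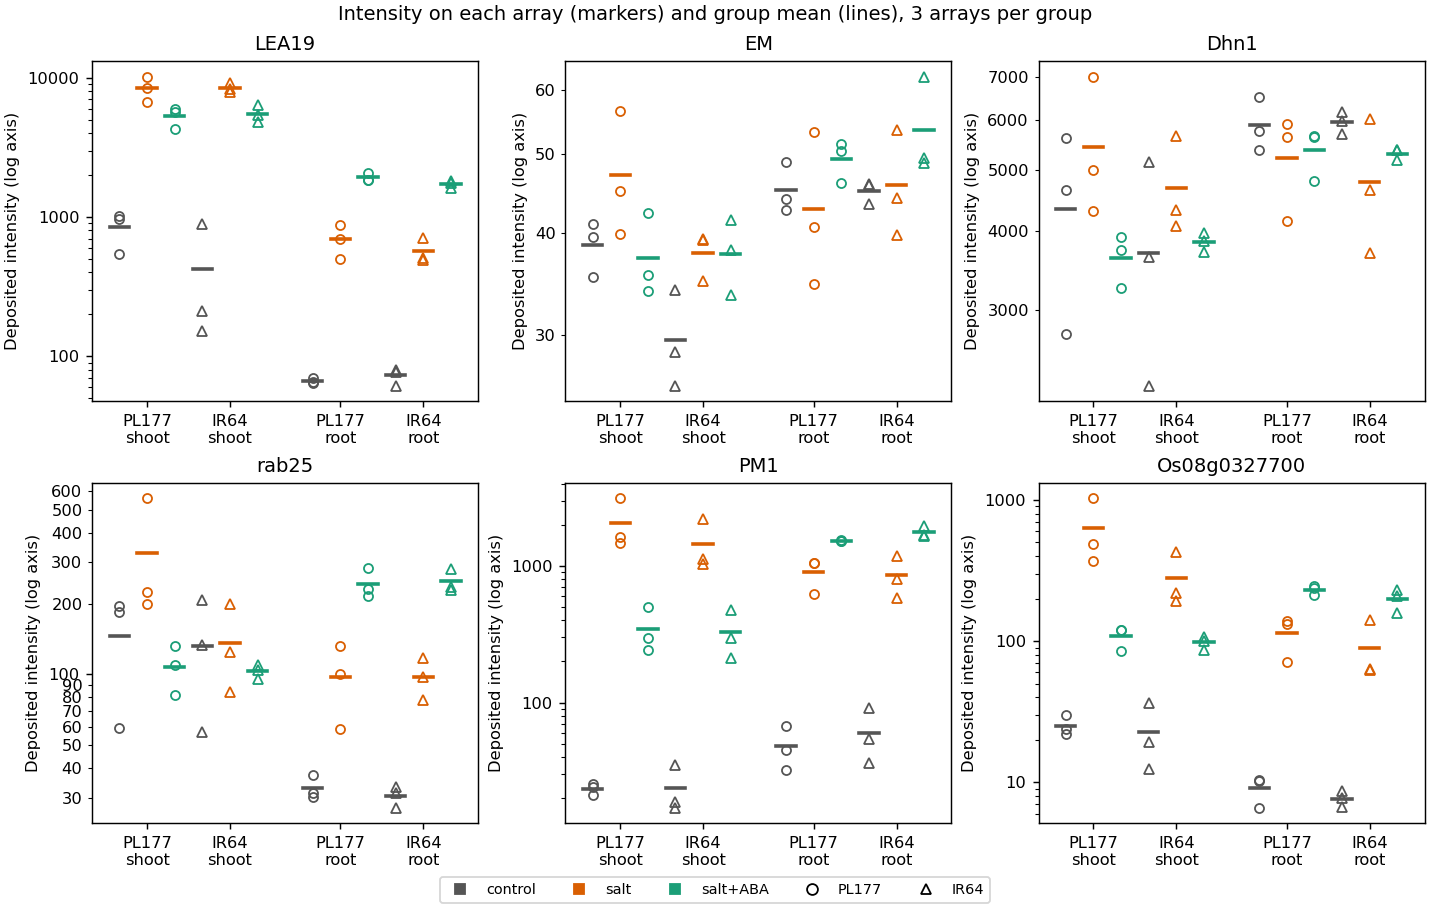
Deposited intensity (log axis) of the listed probe set of each of the 6 genes in the 12 groups, 1 point per array and a line at the mean of each group of 3. Within each organ LEA19, PM1 and Os08g0327700 are lowest under the control, and highest under salt in shoots and under salt+ABA in roots, while Dhn1 (2280 to 7016) and EM (26.0 to 62.3) stay in a narrow band.

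Salt was compared with the control first. LEA19, PM1 and Os08g0327700 rose in shoots and roots of both genotypes, with log2 changes of 2.44 to 4.62 for LEA19, 3.21 to 5.19 for PM1 and 1.54 to 3.41 for Os08g0327700. rab25 passed the call only in IR64 roots, at 1.01. Dhn1 and EM did not pass it in any of the 4 comparisons. In shoots 3 of the 6 genes were called higher, where 0.983% of all probe sets were called higher in PL177 and 0.968% in IR64. In roots 3 of 6 were called higher in PL177 and 4 of 6 in IR64, against 0.73% and 0.608% of all probe sets. The median change of the 6 genes was 2.14 in PL177 shoots, 1.46 in IR64 shoots, 1.37 in PL177 roots and 1.28 in IR64 roots, and that of all probe sets was between -0.01 and 0.00. The study itself named LEA19, PM1 and Os08g0327700 among the genes changed by salt on these arrays, so their direction is not independent evidence. An ordinary t-test of each pair of groups was also run here on the same normalized values, and is not the study's own calculation. Adjusted over all probe sets, this t-test called 0 of the 6 genes in the treatment comparisons of shoots and this comparison of roots. The share of all probe sets that it called is not given beside this count, so nothing about the 6 genes is read from it. With an unadjusted p the t-test lost 2 of 53 calls made over all comparisons.

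The group 3 protein gene LEA19 read 539, 969 and 1020 on the control arrays of PL177 shoots and 6666, 8452 and 10208 on the salt arrays. In IR64 shoots it read 152, 211 and 897 under the control and 9134, 7904 and 8315 under salt. All salt arrays lay far above all control arrays of both genotypes, and the third control array of IR64 was far above the other two. LEA19 rose by 3.31 (SE 0.43, adjusted p 0.00026) in PL177 shoots and by 4.62 (SE 0.43, adjusted p 1.63e-05) in IR64 shoots. Without the third control array of IR64 the change was 5.30.

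Root levels of LEA19 were 63.9, 65.7 and 69.2 under the control and 698, 497 and 875 under salt in PL177, and 79.9, 61.2 and 76.9 against 708, 490 and 507 in IR64. The control arrays of both genotypes lay within a narrow span, and the salt arrays of roots were within or below the range of untreated PL177 shoots. The changes were 2.83 (SE 0.17, adjusted p 1.32e-07) and 2.44 (SE 0.17, adjusted p 6.34e-07), which are ratios of mean intensities of 10.4 and 7.82.

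PM1, the membrane protein gene, read 24.0, 25.4 and 20.9 under the control and 1477, 1618 and 3117 under salt in PL177 shoots. In IR64 shoots the values were 17.0, 18.6 and 35.0 against 2187, 1117 and 1036. Control levels were near the bottom of the intensity scale, and even the lowest salt array was far above the highest control array. The changes of 5.19 (SE 0.34, adjusted p 1.78e-06) and 4.68 (SE 0.34, adjusted p 3.19e-06) correspond to ratios of mean intensities of at least 64.7 and 45.2.

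In roots, PM1 read 67.2, 32.4 and 45.3 under the control and 1043, 626 and 1049 under salt in PL177, and 90.9, 36.3 and 53.9 against 1189, 586 and 807 in IR64. The groups did not overlap, and the second array was the lowest of its group in both treatments and both genotypes. PM1 rose by 3.53 (SE 0.26, adjusted p 9.95e-07) in PL177 roots and 3.21 (SE 0.26, adjusted p 2.74e-06) in IR64 roots.

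Os08g0327700, annotated by the study as a LEA group 1 family gene, read 21.9, 29.9 and 23.7 under the control in PL177 shoots. Under salt the values there were 372, 486 and 1024. The IR64 shoot arrays read 12.5, 19.4 and 36.2 under the control and 427, 218 and 192 under salt. One salt array in each genotype, the third of PL177 and the first of IR64, read more than the other two together, and no salt array came near the control arrays. Os08g0327700 rose by 3.41 (SE 0.31, adjusted p 1.72e-05) and 2.45 (SE 0.31, adjusted p 0.0002).

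In control roots the same gene read 6.62, 10.5 and 10.3 in PL177 and 8.63, 7.70 and 6.73 in IR64. Salt brought it to 133, 70.6 and 138 in PL177 and 142, 63.0 and 62.9 in IR64, with no overlap. Its control values were all below 32, so the changes of 1.78 (SE 0.20, adjusted p 6.55e-05) and 1.54 (SE 0.20, adjusted p 0.000218) correspond to ratios of mean intensities of at least 3.55 and 2.79. With a larger pseudocount the changes were 0.80 and 0.66, under 2-fold and not called.

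The dehydrin gene rab25 read 183, 59.2 and 194 under the control and 223, 198 and 559 under salt in PL177 shoots, and 134, 56.8 and 206 against 200, 125 and 84.3 in IR64 shoots. The second control array was the lowest in both genotypes, the third salt array of PL177 was by far the highest, and in IR64 the groups overlapped. Neither difference was called, at 0.96 (SE 0.43, 95% interval 0.04 to 1.87, adjusted p 0.171) in PL177 and 0.09 (95% interval -0.83 to 1.004, adjusted p 0.944) in IR64.

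Control roots read 31.3, 37.4 and 30.1 for rab25 in PL177 and 33.2, 27.2 and 31.3 in IR64, and salted roots 101, 58.8 and 133 in PL177 and 118, 77.6 and 97.2 in IR64. The groups did not overlap, and the control arrays lay closer together. The change was 1.01 in IR64 roots (SE 0.17, adjusted p 0.00114), which was called, and 0.97 in PL177 roots (SE 0.17, adjusted p 0.00151), just short of 2-fold. Single arrays decided on which side of 2-fold these fell: without the second salt or the second control array the PL177 value was 1.199 or 1.02 and called, and without the first salt array or the second control array the IR64 value was 0.92 or 0.97 and not called. It was not called either without the third salt array of IR64. In a fit of all 36 arrays the IR64 call was lost (adjusted p 0.0518).

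Dhn1, the other dehydrin gene, was bright in every group. In PL177 shoots it read 4638, 2754 and 5603 under the control and 4305, 4994 and 7016 under salt, and in IR64 shoots 3643, 2280 and 5141 against 5643, 4078 and 4318. As with rab25, the second control array was the lowest in both genotypes, and the groups overlapped. The differences were 0.40 (95% interval -0.17 to 0.96, adjusted p 0.377) and 0.48 (95% interval -0.09 to 1.04, adjusted p 0.319) in shoots. In roots they were -0.25 (95% interval -0.57 to 0.07) in PL177 and -0.32 (95% interval -0.64 to 0.00) in IR64, so the intervals in roots did not reach 2-fold in either direction.

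EM was dim throughout, at 35.3, 39.5 and 41.1 under the control and 45.1, 39.9 and 56.5 under salt in PL177 shoots, and 26.0, 28.6 and 34.1 against 39.2, 35.0 and 39.3 in IR64 shoots. In IR64 shoots the salt arrays lay just above the control arrays, and in PL177 shoots they overlapped. The differences were 0.19 in both genotypes (95% intervals 0.03 to 0.35 in each, adjusted p 0.115 and 0.148). In roots EM read 44.0, 42.7 and 48.9 against 34.6, 40.7 and 53.2 in PL177 and 43.4, 46.0 and 45.8 against 53.5, 39.7 and 44.1 in IR64, which are overlapping groups with differences of -0.03 and -0.01.

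**Figure D2:**
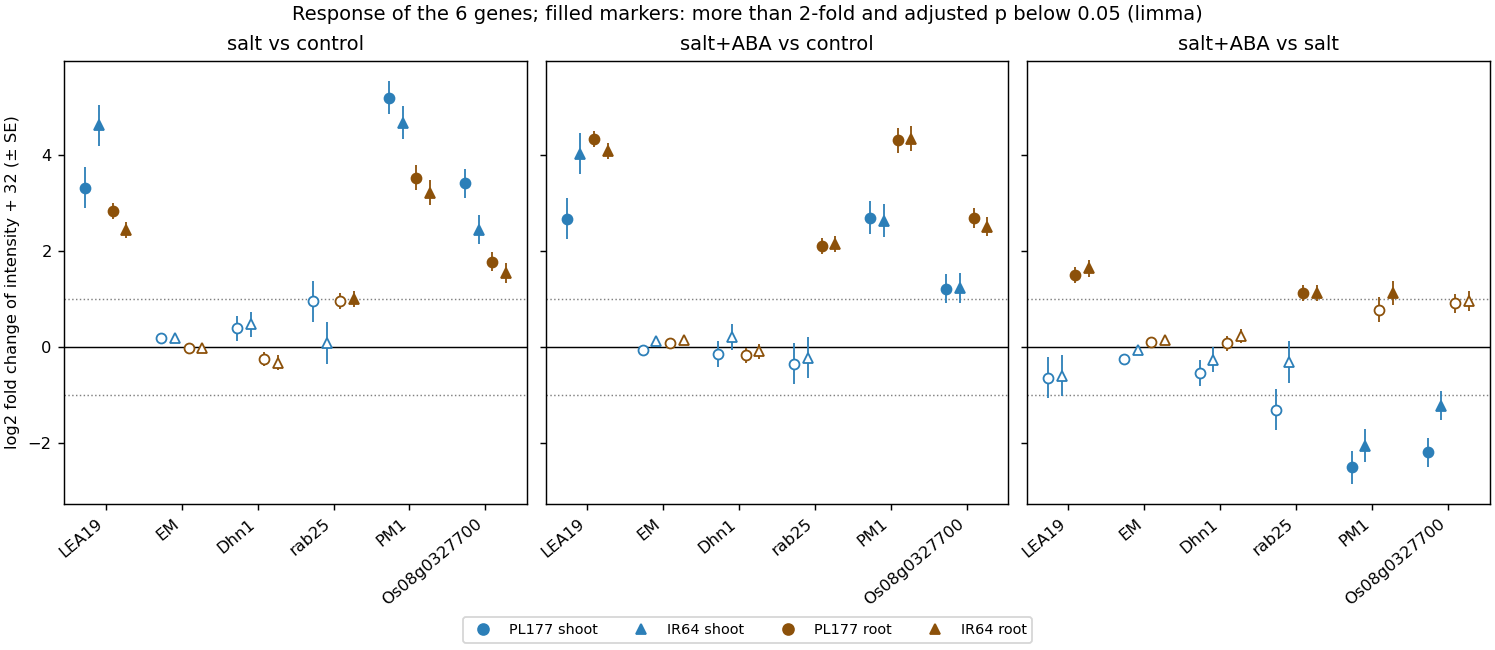
Log2 fold change ± SE of each of the 6 genes in the 3 treatment comparisons, for shoots and roots of PL177 and IR64 (3 arrays per group, limma on log2(intensity + 32)), with filled points for called changes and dotted lines at 2-fold. PM1 and Os08g0327700 are called lower under salt+ABA than under salt in shoots, no gene is called lower in roots, and no point of Dhn1 or EM is filled.

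Salt+ABA was then compared with the control, with which the salt groups had been compared too, so the comparisons share the control arrays. LEA19, PM1 and Os08g0327700 were called higher in shoots of both genotypes, 3 of the 6 genes where 0.309% of all probe sets were called higher in PL177 and 0.314% in IR64. In roots rab25 joined them, and 4 of 6 genes were called higher in both genotypes, against 1.1% and 0.875% of all probe sets. The median change of the 6 genes was 0.58 in PL177 shoots, 0.72 in IR64 shoots, 2.40 in PL177 roots and 2.33 in IR64 roots.

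With salt+ABA the shoot arrays of LEA19 read 4289, 5971 and 5657 in PL177 and 4797, 6379 and 5371 in IR64. These were above every control array of shoots, and the changes against the control were 2.68 (adjusted p 0.00279) and 4.03 (adjusted p 0.000122). Without the third control array of IR64 the latter was 4.71. PM1 in shoots read 242, 297 and 498 in PL177 and 297, 474 and 213 in IR64. It was above the control by 2.70 (adjusted p 0.000569) and 2.63 (adjusted p 0.000579), with every array between the control and the salt arrays. Shoot arrays of Os08g0327700 read 85.6, 120 and 119 in PL177 and 101, 107 and 86.7 in IR64, which also lay between the control and the salt arrays. Its changes against the control were 1.22 (adjusted p 0.0349) in PL177 and 1.23 (adjusted p 0.0299) in IR64.

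These last calls depended on single arrays. In PL177 the change of Os08g0327700 was no longer called when any single salt+ABA array was left out (1.33, 1.15 and 1.16, adjusted p 0.0708, 0.102 and 0.123), nor without the first control array (1.18, adjusted p 0.101) or the third (1.199, adjusted p 0.0721). In IR64 it was no longer called when any single salt+ABA array was left out (1.19 to 1.30, adjusted p 0.0756, 0.107 and 0.0772), nor without the first control array (1.09, adjusted p 0.0927) or the second (1.204, adjusted p 0.0623).

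In roots under salt+ABA, LEA19 read 1845, 2079 and 1855 in PL177 and 1808, 1610 and 1748 in IR64, and PM1 read 1509, 1537 and 1523 and 1647, 1974 and 1674. The spread between arrays was small and no array was near the control level. LEA19 rose by 4.33 (adjusted p 5.37e-10) and 4.08 (adjusted p 1.05e-09) against the control, and PM1 by 4.31 (adjusted p 6.33e-08) and 4.34 (adjusted p 5.21e-08). Os08g0327700 read 212, 245 and 237 in PL177 roots and 208, 230 and 159 in IR64 roots. Every one of these arrays was above every root array of the gene under control and salt, and the changes against the control were 2.69 (adjusted p 6.45e-07) and 2.51 (adjusted p 1.36e-06). For rab25 the arrays read 215, 230 and 284 in PL177 roots and 235, 281 and 229 in IR64 roots. They too lay above all root arrays of the control and salt groups, with changes of 2.104 (adjusted p 9.14e-07) and 2.14 (adjusted p 7.96e-07).

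In shoots under salt+ABA rab25 read 81.9, 109 and 133 in PL177 and 110, 104 and 95.3 in IR64. These arrays lay inside the range of the control arrays, and the differences were -0.35 (95% interval -1.26 to 0.57) and -0.22 (95% interval -1.14 to 0.70). Dhn1 in these groups read 3250, 3739 and 3911 for PL177 and 3857, 3976 and 3707 for IR64. Its differences from the control were -0.14 and 0.21 there, with -0.17 and -0.09 in roots, none of them called. EM differed from the control by -0.06 and 0.14 in shoots and by 0.09 and 0.14 in roots, none of them called.

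The comparison of salt+ABA with salt asks what the added hormone changed in salted plants, and it shares the salt arrays with the comparison of salt with control. Calls were lower in shoots and higher in roots. In shoots 2 of the 6 genes, PM1 and Os08g0327700, were called lower in both genotypes, where 0.513% of all probe sets were called lower in PL177 and 0.475% in IR64. In roots 2 of 6 genes were called higher in PL177 (LEA19 and rab25) and 3 of 6 in IR64 (LEA19, rab25 and PM1), against 0.327% and 0.33% of all probe sets. The study named LEA19, Os08g0327700 and rab25 among the genes that ABA changed on these arrays, so the direction of these 3 is not independent evidence either. Its list also gives rab25 as lower in PL177 shoots and Os08g0327700 as higher in roots of both genotypes. Those changes were not called here.

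PM1 fell by 2.49 (SE 0.34, adjusted p 0.00119) in PL177 shoots and by 2.05 (SE 0.34, adjusted p 0.0039) in IR64 shoots. The mean intensity under salt+ABA was 0.167 of that under salt in PL177 and 0.227 in IR64. Os08g0327700 fell by 2.19 (SE 0.31, adjusted p 0.00126) in PL177 shoots and by 1.21 (SE 0.31, adjusted p 0.0257) in IR64 shoots, to 0.173 and 0.352 of the salt level. In IR64 the call was lost without the first salt array (-0.90, adjusted p 0.0932) or without any single salt+ABA array (-1.25, -1.25 and -1.14, adjusted p 0.0591, 0.0692 and 0.095).

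LEA19 in shoots was lower under salt+ABA than under salt by amounts that did not pass the test, -0.64 (adjusted p 0.395) and -0.59 (adjusted p 0.447). All 3 salt+ABA arrays were nonetheless below all 3 salt arrays in each genotype. rab25 in PL177 shoots showed a difference of -1.30 (SE 0.43, 95% interval -2.22 to -0.38, adjusted p 0.0659), which was not called, with the salt+ABA arrays below the salt arrays. It was called when the second control array of either genotype was left out (adjusted p 0.0364 and 0.0442), and when the replicate number was added as a block (adjusted p 0.0402). It was also called after a filter on dim probe sets (adjusted p 0.0451), in a fit of only the arrays compared (0.0358) and in one of all 36 arrays (0.0105). In IR64 shoots the rab25 difference was -0.31 (95% interval -1.23 to 0.61). Dhn1 differed by -0.54 (95% interval -1.10 to 0.02) and -0.26 (95% interval -0.82 to 0.30). EM in PL177 shoots differed by -0.25 (adjusted p 0.0431), well under 2-fold.

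In roots LEA19 rose from salt to salt+ABA by 1.50 (SE 0.17, adjusted p 4.24e-05) in PL177 and by 1.64 (SE 0.17, adjusted p 2.59e-05) in IR64, with ratios of mean intensities of 2.79 and 3.03. rab25 rose by 1.14 (adjusted p 0.000418) and 1.13 (adjusted p 0.000471), with ratios of 2.50 and 2.55. Without the second salt array the PL177 value of rab25 was 0.90 and no longer called, and with a larger pseudocount both changes of rab25 were under 2-fold (0.74 and 0.75). PM1 rose by 1.13 (SE 0.26, adjusted p 0.0135) in IR64 and differed by 0.78 (SE 0.26, adjusted p 0.0898) in PL177, where every salt+ABA array was above every salt array. The IR64 call of PM1 was lost without the second salt array (0.87, adjusted p 0.0696) or the second salt+ABA array (1.04, adjusted p 0.0687).

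Os08g0327700 differed in roots by 0.91 (adjusted p 0.0119) in PL177 and by 0.97 (adjusted p 0.00817) in IR64, both just under 2-fold on the log2(intensity + 32) scale, with ratios of mean intensities of 2.03 and 2.23. It was called in PL177 without the first or the third salt array (1.05 without the third), and in IR64 without the first salt or the third salt+ABA array (1.25 and 1.09). Dhn1 differed by 0.08 and 0.24 and EM by 0.11 and 0.15 in roots, and none was called.

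Markers of the other organ moved with the treatments. In roots the summed intensity of the 4 green tissue genes was 6981 to 14590.2 under the control, 15399.6 to 23389 under salt and 5027 to 8054 under salt+ABA. In shoots the sum of the 6 root genes was 3826 to 5295 under the control, 1412 to 2376 under salt and 1968 to 2475 under salt+ABA, but NAAT1, which was brighter in shoots than in roots, made up most of the control sum. The other 5 root genes summed to 944 to 1436, 508 to 951 and 963 to 1209 in these groups, so the control and salt+ABA ranges overlapped without it. Their part in the changes of the 6 genes was not tested.

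The difference between the organs was tested directly, as the response of shoots minus that of roots in one fit of all 36 arrays. For salt+ABA against salt, 4 of the 6 genes were called lower in both genotypes, where 1.17% of all probe sets were called lower in PL177 and 1.17% in IR64. The differences for PM1 were -3.22 (95% interval -4.13 to -2.31, adjusted p 1.81e-05) in PL177 and -3.15 (95% interval -4.07 to -2.24, adjusted p 2.51e-05) in IR64. For Os08g0327700 they were -3.06 (adjusted p 3.87e-06) and -2.17 (adjusted p 0.000344), and for LEA19 -2.19 (adjusted p 0.00268) and -2.29 (adjusted p 0.00167). rab25 differed between the organs by -2.43 (adjusted p 0.00108) in PL177 and by -1.46 (adjusted p 0.045) in IR64. The IR64 value of rab25 was near the threshold, and its call was lost when any 1 of 21 of the 36 arrays was left out, with values from -1.69 to -1.19 over all 36. It was also lost with either other pseudocount, without quantile normalization and with limma's trend and robust options (adjusted p 0.0502 to 0.0622). EM and Dhn1 were not called, at -0.37 (adjusted p 0.0332) and -0.62 (adjusted p 0.256) in PL177 and -0.19 and -0.49 in IR64.

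For salt against control fewer of the genes were called different between the organs. PM1 and Os08g0327700 responded more in shoots than in roots of PL177, by 1.44 (SE 0.44, adjusted p 0.0421) and 1.57 (SE 0.38, adjusted p 0.00905), 2 of the 6 genes where 1.18% of all probe sets were called higher. In IR64 only LEA19 was called, at 1.98 (SE 0.47, adjusted p 0.00684), 1 of 6 where 1.3% were called higher. The LEA19 value was 2.64 without the third control array of IR64 shoots. In PL177 the difference for LEA19 was 0.31 (95% interval -0.64 to 1.27). PM1 and Os08g0327700 in IR64 were at 1.26 (95% interval 0.35 to 2.17, adjusted p 0.0754) and 0.89 (95% interval 0.11 to 1.66, adjusted p 0.153), and neither was called. In fits of only the arrays compared none of these 3 calls was kept, with adjusted p of 0.0811 for PM1, 0.0777 for Os08g0327700 and 0.142 for LEA19. With a pseudocount of 1 the PL177 value of Os08g0327700 was 0.97 and not called, and the IR64 value of PM1 was 1.87 and called.

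The call of PM1 in PL177 was lost without the third salt array or the first or the third control array of shoots (1.12, 1.45 and 1.40), or without the second salt array or the first or the third control array of roots (1.205, 1.29 and 1.45). In IR64, leaving out the first salt array of roots made PM1 (1.56) and Os08g0327700 (1.17) called, leaving out the second control array of roots made PM1 called (1.46), and leaving out the third control array of shoots made Dhn1 called (1.06). The salt response of rab25 was not called different between the organs, at -0.03 (95% interval -0.99 to 0.94) and -0.92 (95% interval -1.89 to 0.04).

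**Figure D3:**
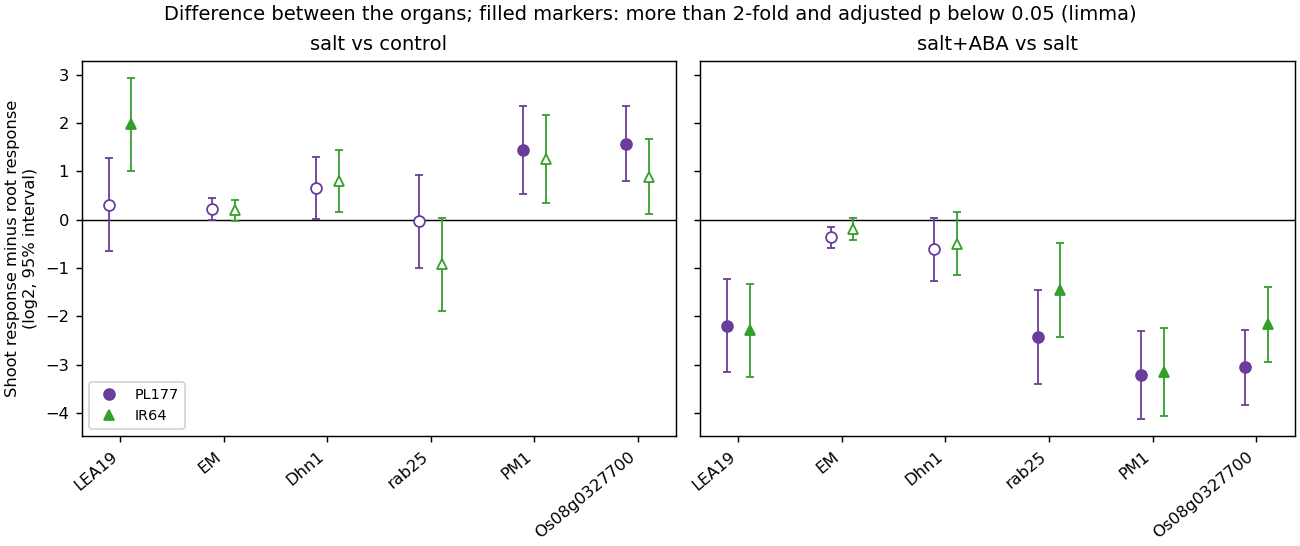
Difference of the log2 response between shoots and roots (shoot minus root, with 95% interval) for the 6 genes in PL177 and IR64, for salt against control and for salt+ABA against salt, from one fit of 36 arrays. LEA19, PM1, Os08g0327700 and rab25 lie below 0 in both genotypes for salt+ABA against salt (-3.22 to -1.46), and EM and Dhn1 lie closer to 0.

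Levels of each gene were also compared between shoots and roots under the same treatment. LEA19 was higher in shoots than in roots under every treatment, by 3.02 and 1.68 under the control, 3.34 and 3.66 under salt and 1.14 (adjusted p 0.00457) and 1.36 (adjusted p 0.000944) under salt+ABA in PL177 and IR64. Without the third control array of shoots the IR64 control value was 1.02. PM1 was not called between the organs under the control (-0.51 and -0.71) or salt (0.93 and 0.55), and was lower in shoots under salt+ABA, by -2.29 (adjusted p 4.35e-07) and -2.60 (adjusted p 4.9e-08). In PL177 the salt difference of PM1 was called without the first or second salt array of shoots (1.13 and 1.05) or the first or the third salt array of roots (1.03 and 1.07).

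Os08g0327700 was not called under the control (0.46 and 0.43). With a pseudocount of 1 these values were 1.35 and 1.28 and PM1 in IR64 was at -1.29, past the threshold, but all 4 control means of Os08g0327700 and the shoot mean of PM1 lay below 32, and no organ difference is read from them. It was higher in shoots than in roots under salt (2.04 and 1.32) and lower under salt+ABA, by -1.03 (adjusted p 0.00189) in PL177, which was called, and by -0.85 (adjusted p 0.00875) in IR64, which was not. The PL177 call was lost without the first salt+ABA array of shoots (-0.91) or the second of roots (-0.99). rab25 was higher in shoots under the control (1.37 and 1.28) and lower under salt+ABA (-1.09 and -1.10), and with the larger pseudocount all 4 were under 2-fold (0.74, 0.68, -0.72 and -0.73). Without quantile normalization the PL177 value under salt+ABA was -0.98 and not called. Under salt it was higher in shoots of PL177 (1.34), though at 0.92 and not called without the third salt array of shoots. In IR64 the salt difference was 0.36 and not called. The IR64 control value of rab25 was 0.96 without the third control array of shoots, and the PL177 value under salt+ABA was -0.96 or -0.98 without the first salt+ABA array of shoots or the third of roots, which were not called.

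Dhn1 was lower in shoots than in roots of IR64 under the control, by -1.08 (SE 0.22, adjusted p 0.000163), with differences of -0.90, -0.86 and -0.78 (under 2-fold and not called) in PL177 under control and salt+ABA and in IR64 under salt+ABA. Without the second control array of shoots the IR64 value was -0.83 and not called, without quantile normalization it was -0.76 and not called, and without the third control array of shoots the PL177 value was -1.11 and called. Between 2 and 4 of the 6 genes were called in these 6 organ comparisons, in which 16.3%, 14.1% and 17.7% of all probe sets were called in either direction under control, salt and salt+ABA in PL177 and 16%, 14.2% and 17.4% in IR64, so a call between organs was common among all genes.

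The order of the 12 groups differed from gene to gene. LEA19 was highest in salt-treated shoots (8451 in IR64 and 8442 in PL177, means of 3 arrays), then in shoots under salt+ABA (5516 and 5306), then in PL177 and IR64 roots under salt+ABA (1926 and 1722), and lowest in control roots (72.7 and 66.2). Of the 11 pairs of neighbours in this order, 6 overlapped, among them the genotypes in shoots under salt and under salt+ABA. PM1 was highest in PL177 shoots under salt (2071) and in IR64 roots under salt+ABA (1765), followed by PL177 roots under salt+ABA (1523) and IR64 shoots under salt (1447). Next in the PM1 order came roots under salt (906 and 861), shoots under salt+ABA (346 and 328), control roots (60.4 and 48.3) and control shoots (23.6 and 23.4), with 8 of 11 neighbours overlapping.

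The highest means of Os08g0327700 were those of salted shoots (627 in PL177 and 279 in IR64) and of roots under salt+ABA (231 and 199), and the lowest those of control roots (9.14 and 7.69), with 8 of 11 neighbours overlapping. rab25 was highest in PL177 shoots under salt (327) and in roots under salt+ABA (249 and 243) and lowest in control roots (32.9 and 30.6), with 9 of 11 neighbours overlapping. For Dhn1 and EM all 11 neighbours overlapped, from 3633 in PL177 shoots under salt+ABA to 5945 in IR64 control roots for Dhn1, and from 29.5 in IR64 control shoots to 53.5 in IR64 roots under salt+ABA for EM.

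Over the 12 group means, the profiles of PM1 and Os08g0327700 had a Pearson r of 0.91, LEA19 and Os08g0327700 of 0.85, and LEA19 and PM1 of 0.67. EM and Dhn1 had an r of 0.86 on their narrow ranges, and LEA19 and Dhn1 of -0.42. These are descriptions over 12 groups of the same 36 arrays. EM, PM1 and LEA19 lie on the same chromosome but are not neighbours, with 143 protein-coding genes between EM and PM1 and 838 between PM1 and LEA19 in the gene table.

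The genotypes were compared within each treatment and in their responses. None of the 6 genes was called in any of the 12 comparisons between PL177 and IR64, 6 in each organ. The study, in its list of genes changed by salt in both organs, marks LEA19 and Os08g0327700 as significantly different between the genotypes. Of all probe sets, 0.112%, 0.119% and 0.114% were called under control, salt and salt+ABA in shoots and 0.107%, 0.117% and 0.114% in roots. For the differences of the responses to salt, to salt+ABA and from salt to salt+ABA, 0%, 0.00349% and 0% were called in shoots and 0.00175%, 0.00175% and 0% in roots. At an unadjusted p below 0.05, 2, 3 and 0 of the 6 genes passed within control, salt and salt+ABA in shoots, where 5.71%, 3.06% and 3.06% of all probe sets passed. For the 3 differences of responses in shoots 2, 1 and 1 of 6 passed, against 3.47%, 2.65% and 1.47%. In roots 0 of 6 passed in each comparison, against 5.98%, 3.56% and 5.77% within the treatments and 2.9%, 2% and 2.55% for the differences of responses. The largest differences within a treatment were in shoots. For LEA19 under the control the difference, PL177 minus IR64, was 1.28 (95% interval 0.36 to 2.19, adjusted p 0.626), and it depended on the third IR64 array (897): without it the difference was 1.96 and called (adjusted p 0.00553). Os08g0327700 differed under salt by 1.03 (95% interval 0.37 to 1.69, adjusted p 0.779) and rab25 by 0.99 (95% interval 0.07 to 1.91). In roots, differences between the genotypes within a treatment lay between -0.24 and 0.28.

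The responses of the genotypes differed most for LEA19 in shoots, with -1.31 (95% interval -2.60 to -0.01, adjusted p 1) for salt against control and -1.35 (95% interval -2.65 to -0.06) for salt+ABA against control, PL177 minus IR64. Both share the control arrays in which 1 IR64 array was high, and without that array they were -1.99 and -2.04 and not called. For Os08g0327700 in shoots the difference was 0.96 (95% interval 0.03 to 1.90) for salt against control and -0.98 (95% interval -1.91 to -0.04) for salt+ABA against salt, both resting on the salt arrays. For rab25 it was -0.99 (95% interval -2.29 to 0.30) for salt+ABA against salt. The intervals in shoots thus leave room for differences of more than 2-fold. In roots the differences of the responses lay between -0.35 and 0.39.

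Deviations of single arrays from their group were shared by several of the genes. In shoots under the control, the second array was low for rab25 (-0.87 in PL177 and -0.76 in IR64, as log2 deviation from the group mean) and for Dhn1 (-0.54 and -0.51). Under salt, the third array of PL177 shoots was high for Os08g0327700 (0.82), PM1 (0.67) and rab25 (0.86), and the first array of IR64 shoots was high for the same 3 genes (0.63, 0.64 and 0.53). In roots under salt the second array was low in both genotypes for PM1 (-0.45 and -0.51), Os08g0327700 (-0.46 and -0.28) and rab25 (-0.47 and -0.21). The third control array of IR64 shoots was high for LEA19, at 1.37, and less so for rab25 and Dhn1, at 0.65 and 0.54. The plot of deviations by array shows these sets.

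Across the 18 arrays of an organ, the deviations of Dhn1 and rab25 in shoots had an r of 0.93 and those of PM1 and Os08g0327700 of 0.83. In roots LEA19 and Os08g0327700 had an r of 0.82, as did Dhn1 and Os08g0327700. These values describe arrays that share their RNA, hybridisation and normalization. The ratio of the 3' to the 5' probe set of GAPDH, a measure of how intact and how fully copied the RNA was, differed among the same arrays. Root salt arrays had ratios of 4.21, 3.13 and 14.3 in PL177 and 12.6, 3.85 and 7.52 in IR64, lowest on the second array of each. Control shoots had 4.38, 2.69 and 3.35 in PL177 and 3.00, 3.22 and 5.89 in IR64. The highest IR64 value was on the array in which LEA19 was high, and the lowest on the first array rather than the second. Salted shoots had 2.57, 2.26 and 2.15 in PL177, lowest on the third array, and 2.98, 2.17 and 2.15 in IR64, highest on the first. For actin, control shoots had 6.28, 3.21 and 3.79 in PL177 and 4.77, 3.25 and 5.83 in IR64, lowest on the second array of each. The part of RNA quality in these deviations was not tested.

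Leaving out the second root salt array of both genotypes together, a choice made after the values were seen, brought rab25 in PL177 roots to 1.196 for salt against control, which was called, and to 0.90 for salt+ABA against salt, which was not, and PM1 in IR64 roots to 0.87 for salt+ABA against salt, which was not called. Leaving out both second control arrays of shoots kept every call of the genes against the control except that of Os08g0327700 under salt+ABA in IR64 (1.21, adjusted p 0.0586).

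**Figure D4:**
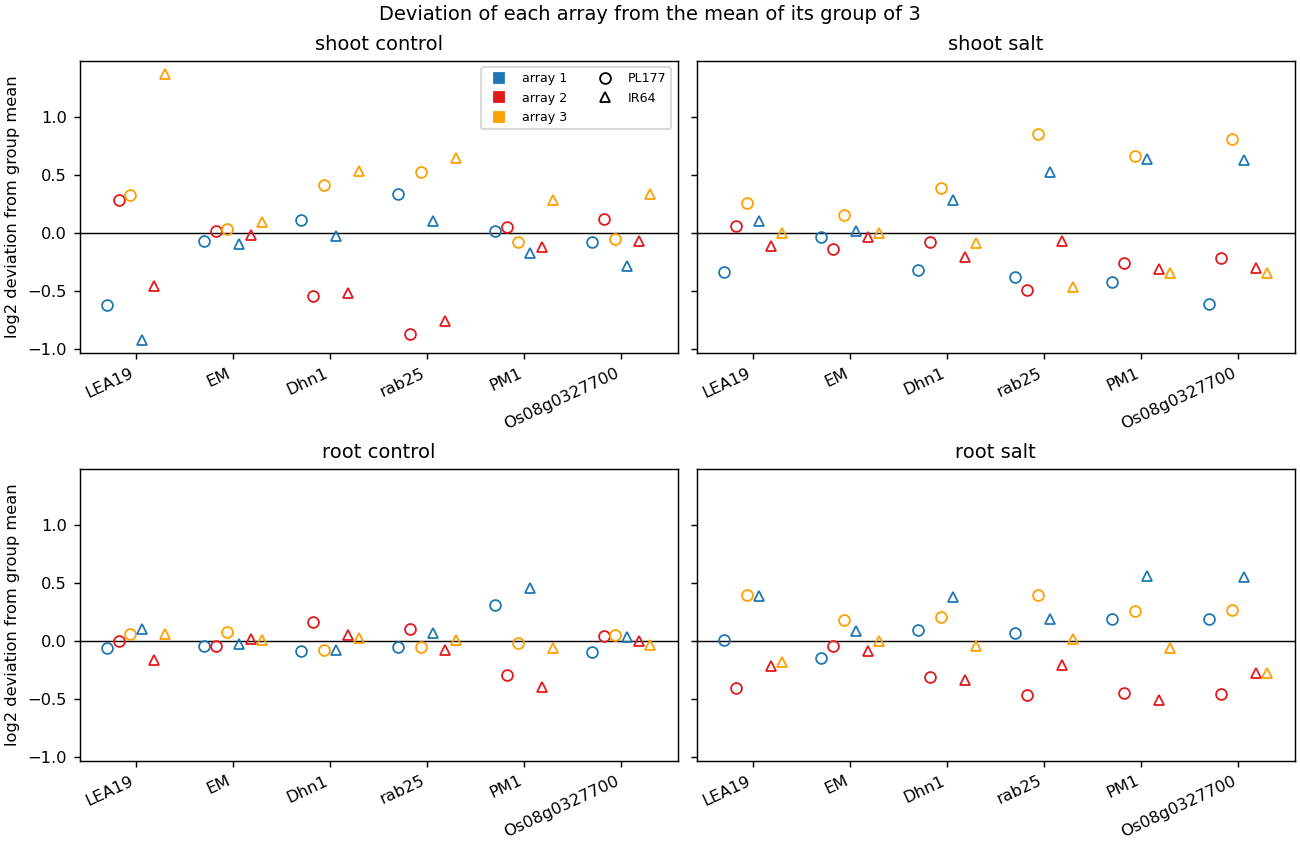
Deviation of each array from its group mean on the log2(intensity + 32) scale for the 6 genes in the control and salt groups of shoots and roots, 3 arrays per group in each genotype. The second control array of shoots is low for rab25 and Dhn1 in both genotypes, the third control array of IR64 shoots is high for LEA19 (1.37), and the second salt array of roots is low for PM1, Os08g0327700 and rab25 in both genotypes.

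The further probe sets of Dhn1 and PM1 did not follow the listed ones. A second Dhn1 probe set read 50.1 to 221 and the remaining one 21.4 to 57.2, and the other PM1 probe set read 9.14 to 39.2, below 32 on 33 of the 36 arrays. None of these 3 probe sets was called in any of the 34 comparisons, so the changes of PM1 described above rest on 1 probe set. The listed LEA19 probe set carries the suffix that the array maker gives to sets shared by several transcripts, and that of rab25 the suffix for alternative transcripts of one gene, and signal from related transcripts cannot be told apart there.

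Genes with the most similar profiles were searched among 10780 probe sets with 1 gene name and a span of at least 1 on the log2 scale, by Pearson r over the 12 group means. PM1 was closest to HOX24, an HD-Zip transcription factor gene (r 0.996), and to the heat shock gene CLPB1, also named HSP101 (r 0.984), then to LOC4345700 (r 0.979). LEA19 was closest to the dehydrin gene RAB21 (r 0.984), then to LOC4337944 (r 0.979) and to LOC4330775 (r 0.968). LOC4337944 is the gene Os05g0171200 of the seed maturation list below, which the study annotates as an embryo-specific 3 family gene. Os08g0327700 was closest to LOC4349062 (r 0.963), LOC4328545 (r 0.962) and the dehydrin gene RAB16C (r 0.962). Dhn1 was closest to MT1B, a metallothionein gene (r 0.984), LOC4337314 (r 0.981) and LOC4337872 (r 0.978). rab25 was closest to the unnamed gene LOC4348974 (r 0.915) and to MFT1, a gene of the MOTHER OF FT AND TFL1 type (r 0.905), then to LOC4345697 (r 0.896). EM was closest to LOC4350540 (r 0.904), the kinase gene CIPK12 (r 0.899) and LOC4337542 (r 0.893), on a span for EM of only 0.46. With so many candidates and 12 groups of shared arrays, a high r is a description.

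Beside these genes, 5 other LEA and dehydrin genes with a probe set could be matched, RAB21, RAB16B, RAB16C, RAB16D and Os06g0341300, a seed maturation protein gene. The study named all 5 among the genes changed by salt on these arrays, so their direction is not independent evidence. Os06g0341300 was taken from those genes, so its call under salt is no result about the list. All 5 were called higher under salt than under the control in shoots and roots of both genotypes, with medians of 3.67 and 3.34 for shoots and 2.35 and 2.18 in roots. Of all probe sets, 0.983% and 0.968% were called higher under salt in shoots, and 0.73% and 0.608% in roots. The shares for the comparisons below are those given with the 6 genes. Compared with the control, salt+ABA gave 4 of 5 called higher in PL177 shoots, and 5 of 5 in IR64 shoots and in roots of both genotypes. Under salt, RAB21 rose by 5.79 and 6.20 and RAB16B by 5.66 and 5.27 in shoots of PL177 and IR64. RAB21 is read here from another probe set than in the search for similar profiles and in the study's list. From salt to salt+ABA, 3 of 5 fell in PL177 shoots (median -1.50) and 1 of 5 in IR64 shoots (median -1.14). RAB16B fell by 1.71 and 1.22 there. In roots, 0 of 5 were called in PL177 (median 0.71) and 3 of 5 rose in IR64 (median 1.25), where RAB16C rose by 1.34, RAB16B by 1.26 and RAB21 by 1.25.

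A further list held 10 genes of seed maturation with a probe set, among them glutelin, prolamin and globulin genes and the regulator VP1. Of these, 9 were matched by name, and none of the 9 was called higher under salt. Of all probe sets, 0.608% to 0.983% were called higher there. The remaining gene, Os05g0171200, was taken from the study's genes changed by salt, so its call is no result about the list. Os05g0171200, an embryo-specific 3 family gene, rose by 2.50 (PL177) and 2.25 (IR64) in shoots and by 1.34 and 1.22 in roots. The study named Os05g0171200 among the genes changed by salt on these arrays, so its direction is not independent evidence. It rose further from salt to salt+ABA in roots, by 1.12 and 1.48. The other 9 were not called in these comparisons, and EM, an embryo protein gene too, was not either.

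Of 22 genes of core ABA signalling with a probe set, 4 rose and 1 fell under salt in shoots of each genotype. Of all probe sets, 0.983% in PL177 and 0.968% in IR64 were called higher there. The share called lower is not given, so the lower call is not weighed against it. The phosphatase genes OsPP2C59 (3.84 and 3.49), OsPP2C51 (2.68 and 2.36) and PP2C68 (2.41 and 2.45) and the kinase gene OsSAPK1 (1.45 and 1.50) rose, and OsSAPK2 fell by 1.34 and 1.39. In roots 3 rose in PL177 and 1 in IR64 under salt, against 0.73% and 0.608% of all probe sets called higher. Under salt+ABA against the control, 1 rose in shoots of each genotype, and 3 in PL177 roots and 4 in IR64 roots. The shares of all probe sets called higher there were 0.309% and 0.314% in shoots and 1.1% and 0.875% in roots. From salt to salt+ABA, 3 of 22 fell in shoots of each genotype, where 0.513% and 0.475% of all probe sets were called lower. OsSAPK2 rose in IR64 shoots by 1.49. The share of all probe sets called higher there is not given, so this call is not weighed either. In roots 0 of 22 were called from salt to salt+ABA, where LEA19 and rab25 rose. The median change of this list lay between -0.19 and 0.40 in the 12 treatment comparisons.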

How the data were processed

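Shoots and roots of PL177 and IR64 were measured on Affymetrix rice arrays, 3 for each of 12 groups. The deposited values are probe set intensities on a linear scale (1 to 25332.33). Their summarisation and scaling by the authors were not given in the sources used here, and 31.2% of values are below 32. The number of arrays limits the precision, and p-values measure the spread between these samples.

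From the file, 123 control probe sets were left out and 57258 kept. Arrays of an organ (18), or all 36 for organ comparisons, were quantile normalized, 32 was added, log2 was taken, and lmFit and eBayes of limma 3.58.1 (R 4.3.3) were run with a term for each group. P-values are adjusted by Benjamini-Hochberg. Summaries and figures used Python 3.11.15, pandas 2.3.3 and matplotlib 3.10.9. Intervals are from limma's moderated t distribution. The fit was tested on simulated data. No detection call was used.

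Same-numbered arrays of PL177 and IR64 deviated together (r over 0.1 for every number) under the control (0.758 to 0.788 in shoots, 0.651 to 0.755 in roots) and in root salt (0.199 to 0.572), and treatment groups did not pair by number. A block changed 1 call, given with rab25.

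The 6 genes and the lists were chosen with earlier results of these data known. Genes named are the 6, the 3 most similar in profile to each, and up to 3 called genes per direction of each list. Most list genes were matched by symbol or synonym in a RefSeq gene table (assembly ASM3414082v1, used for names and gene order). Most locus identifiers could not be matched. Os06g0341300 and Os05g0171200 were added by the probe sets that the study gives for them among the genes changed by salt. This left 5 of 6, 10 of 12 and 22 of 24 genes with a probe set. The alternatives are other pseudocounts (1 and 128), normalizations, a filter at 64, other fits, an ordinary t-test, a replicate block and leaving out arrays.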

Additional observations from a re-analysis of the deposited data

Results flagged for a closer look

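The responses of shoots and roots differed for 4 of the 6 genes, by limma's test of the difference itself in a fit of all 36 arrays. For salt+ABA against salt, shoot minus root, PM1 differed by -3.22 in PL177 and -3.15 in IR64, Os08g0327700 by -3.06 and -2.17, LEA19 by -2.19 and -2.29, and rab25 by -2.43 and -1.46, where 1.17% of all probe sets were called lower in each genotype. The IR64 call of rab25 was lost when any 1 of 21 arrays was left out. For salt against control, PM1 differed by 1.44 and Os08g0327700 by 1.57 in PL177, and LEA19 by 1.98 in IR64, where 1.18% and 1.3% of all probe sets were called higher. None of these 3 calls was kept in fits of only the arrays compared, that of PM1 was lost without any 1 of 6 arrays, and LEA19 was at 2.64 without the third control array of IR64 shoots. Whether the differences themselves differ between the genotypes was not tested.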

How the results depend on the processing

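The 6 genes were called 64 times over 34 comparisons. Of these calls, 23 were kept in all 51 other settings, 36 of which leave out 1 array, and none changed direction. The larger pseudocount lost 17 of the 64 calls and of 1 lost 2, no quantile normalization lost 4, median centring 2, a fit of only the arrays compared 4, trend and robust options 1, and the replicate block 0. The ordinary t-test after adjustment lost 34 of the 53 calls it could test, and with an unadjusted p 2 of 53. By the adjusted t-test, 0 of the 6 genes were called in any treatment comparison of shoots. In roots 0 were called for salt against control and for salt+ABA against salt. With this t-test, shoot against root gave 1, 0 and 1 in PL177 control, IR64 control and IR64 salt. The share of all probe sets that it called is not given beside these counts, so nothing about the 6 genes is read from them. For shoot minus root in salt against control the counts of PL177 and IR64 were 1 and 2 with a pseudocount of 1, 0 and 0 with only the arrays compared, and 2 for IR64 without quantile normalization or with median centring. The larger pseudocount gave 1 gene for salt+ABA against salt in IR64 shoots, 1 in PL177 roots, 2 for salt against control in IR64 roots, 1 for shoot minus root in salt against control of PL177, and 1, 2 and 1 for shoot against root of PL177 control, PL177 salt+ABA and IR64 salt. Shoot against root gave 5 genes in IR64 control with a pseudocount of 1, 2 in PL177 salt+ABA without quantile normalization and 6 in IR64 salt+ABA without the 2-fold threshold. Leaving out both second root salt arrays, a choice made after seeing the data, left 1 gene for salt+ABA against salt in PL177 roots. Leaving out each array in turn gave 2 to 3 genes for salt+ABA against control in shoots, 2 to 3 and 1 to 2 for salt+ABA against salt in shoots of PL177 and IR64, 1 to 3 and 2 to 4 in roots, 3 to 4 for salt against control in roots, 1 to 2 and 1 to 3 for shoot minus root in salt against control, 3 to 4 for shoot minus root in salt+ABA against salt of IR64, 0 to 1 between genotypes in control shoots, and 2 to 4 for shoot against root. The cause of these changes was not tested.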
